A study of Mus musculus with 12 samples.

Results

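The genes that encode the proteins of the cytosolic ribosome, and the genes whose introns carry small nucleolar RNAs (snoRNAs), were followed across RNA polymerase II (Pol II) occupancy in mouse duodenal epithelium. They were taken by symbol from the first column of both tables of comparisons deposited by the authors. The rule kept symbols that start with Rpl or Rps and a digit, Rplp0 to Rplp2, symbols that start with Snhg and a digit, and Rpsa, Rack1 and Gas5, and it left out the ribosomal S6 kinases. It found 98 of the 6429 genes tested, and no measured value entered it. The 98 members comprised 44 genes of the large ribosomal subunit, 29 of the small subunit (with Rpsa and Rack1), 15 noncoding snoRNA host genes (Gas5 and the Snhg genes) and 10 other symbols, which are paralogs, retrogenes, annotated pseudogenes and a binding protein.

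Pol II was mapped by chromatin immunoprecipitation and sequencing (ChIP-seq). Per the labels, 3 libraries came from WT villus cells and 3 from WT crypt cells of adult mice given oil vehicle, and 3 from villus cells of adult mice labelled Hnf4αγ DKO, which lack the transcription factors HNF4A and HNF4G and received tamoxifen at 50 mg/kg/day for 2 days, 1 day before death. Each group also had 1 input library. The epithelium was released with EDTA for 35 minutes from WT and for 25 minutes from mutant duodenum, and villi were held back by a 70 µm filter that let crypts pass. Genotype, tamoxifen and EDTA time therefore cannot be told apart, no crypts of the mutant were collected, and the labels do not name the Cre line or say whether each library is 1 animal. As a check of the labels, Pol II signal at the targeted genes Hnf4a and Hnf4g was lower in WT villi than in those labelled DKO in the authors' deposited table (log2 fold changes of −0.54 ± 0.14 and −1.45 ± 0.22). Signal over a whole gene need not report a deletion within it, and the group is called the villi labelled DKO throughout.

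Ribosomal protein genes are short, intron-containing housekeeping genes that are transcribed at high rates, and their output follows the growth and division of a cell. Their transcripts start with a C followed by a run of pyrimidines, the 5′ terminal oligopyrimidine (TOP) motif, through which the growth regulator mTOR and the protein LARP1 control their translation. Gas5 and many Snhg genes share the TOP start and code for no known protein. Their introns, like those of many ribosomal protein genes, release snoRNAs that guide chemical modification of ribosomal RNA. In the intestine, stem and dividing cells sit in the crypts, and differentiated cells line the villi.

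RefSeq promoter sequences (build GRCm38.p6) were matched by symbol for 74 of the 98 members. A C followed by at least 4 pyrimidines within 5 bases of the RefSeq start was found in 48.6% of the 74, against 24.0% of the other genes tested and 21.2% of all genes in the RefSeq promoter table. The sequences below are shown because they carry this run and stand at the ends of the range of response. Among promoters with the run, Rpl27a, Rps24 and Gas5 had the largest excess of Pol II in crypt of their class, and Rpl7a, Rps27 and Snhg18 the smallest. Each piece runs from 40 bases before the RefSeq start to 20 bases after it, 5′ to 3′ on the gene's strand. Capitals mark the pyrimidine run from the C at which it was counted.
Rpl27a: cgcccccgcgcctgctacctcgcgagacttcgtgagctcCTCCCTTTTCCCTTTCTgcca
Rps24: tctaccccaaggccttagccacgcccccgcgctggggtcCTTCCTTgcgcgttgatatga
Gas5: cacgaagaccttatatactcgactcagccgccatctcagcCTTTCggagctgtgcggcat
Rpl7a: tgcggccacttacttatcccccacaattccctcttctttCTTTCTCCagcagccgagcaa
Rps27: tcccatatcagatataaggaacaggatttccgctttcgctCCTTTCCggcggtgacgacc
Snhg18: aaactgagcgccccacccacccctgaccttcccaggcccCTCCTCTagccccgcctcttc
The pieces lie on GRCm38.p6 at chr7:109519155-109519214 (plus strand) for Rpl27a, chr14:24490638-24490697 (plus) for Rps24, chr1:161035126-161035185 (plus) for Gas5, chr2:26910767-26910826 (plus) for Rpl7a, chr3:90213629-90213688 (minus) for Rps27 and chr15:32244643-32244702 (minus) for Snhg18. The marked run was 17 bases long in Rpl27a, 8 in Rpl7a and 5 in Gas5. In each piece further pyrimidines lie directly before the capitals, and at Rpl7a they are many. The marked lengths therefore do not rank the unbroken pyrimidine stretches. Rpl27a and Gas5 had a Pol II signal that was over 2-fold higher in crypt, whereas the difference of Rpl7a between crypt and villus did not pass the test.

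All values below rest on the authors' 2 deposited tables, 1 of WT villus against WT crypt and 1 of WT villus against the villi labelled DKO. Each gives a log2 fold change of Pol II signal (normalised read counts), its standard error (SE, printed after ±) and a p from the authors' fit, adjusted over all 6429 genes. Negative values mean less signal in WT villus. A gene was called, or is said to be higher or lower, at an adjusted p under 0.05. The 2 comparisons share the WT villus libraries, so their values are not independent, and they stand side by side only. The signal of each group was rebuilt from the deposited mean signal and the 2 fold changes on the assumption of 3 groups of equal size. The libraries that entered the fit are not listed, so this assumption could not be checked. The rebuilt signal is given in normalised reads and is not comparable between genes, whose lengths differ. No values per library are given, because the deposited count columns carry no library names.

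Pol II signal at ribosomal protein and snoRNA host genes was higher in crypt than in villus. In the authors' deposited table all 98 members had a negative log2 fold change of WT villus over WT crypt, and 80 (81.6%) were called higher in crypt, where 18.8% of all genes tested were. None was called higher in villus, where 18.6% of all genes tested were, and none was at an unadjusted p under 0.05. The median log2 fold change was −0.76, a 1.70-fold higher signal in crypt, and the members ranged from −1.43 to −0.05. The median of all genes tested was −0.04. Pol II signal at 59 genes (0.918% of all genes tested) was called and over 2-fold higher in crypt, and 25 of these (42.4%) were members, which is 25.5% of the members. Tested against changes up to 0.5 rather than 0, 10 members (10.2%) were past the threshold, of 30 genes in all (0.467% of all genes tested).

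At most members Pol II signal was also lower in WT villi than in those labelled DKO. In the authors' deposited table, a total of 72 members (73.5%) were called higher in the villi labelled DKO, where 29.5% of all genes tested were. A single member, Rpl29, was called higher in WT villi, where 22.4% of all genes tested were. The median log2 fold change was −0.64, or 1.56-fold, with a range from −1.23 to 0.59, and that of all genes tested was −0.08. Of 139 genes called and over 2-fold higher in the villi labelled DKO (2.16% of all genes tested), 11 (7.91%) were members, which is 11.2% of the members. Against changes up to 0.5, the 4 members Rpl11, Rpl23a, Rps24 and Snhg4 were past the threshold (4.08%), where 2.38% of all genes tested were.

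**Figure D1:**
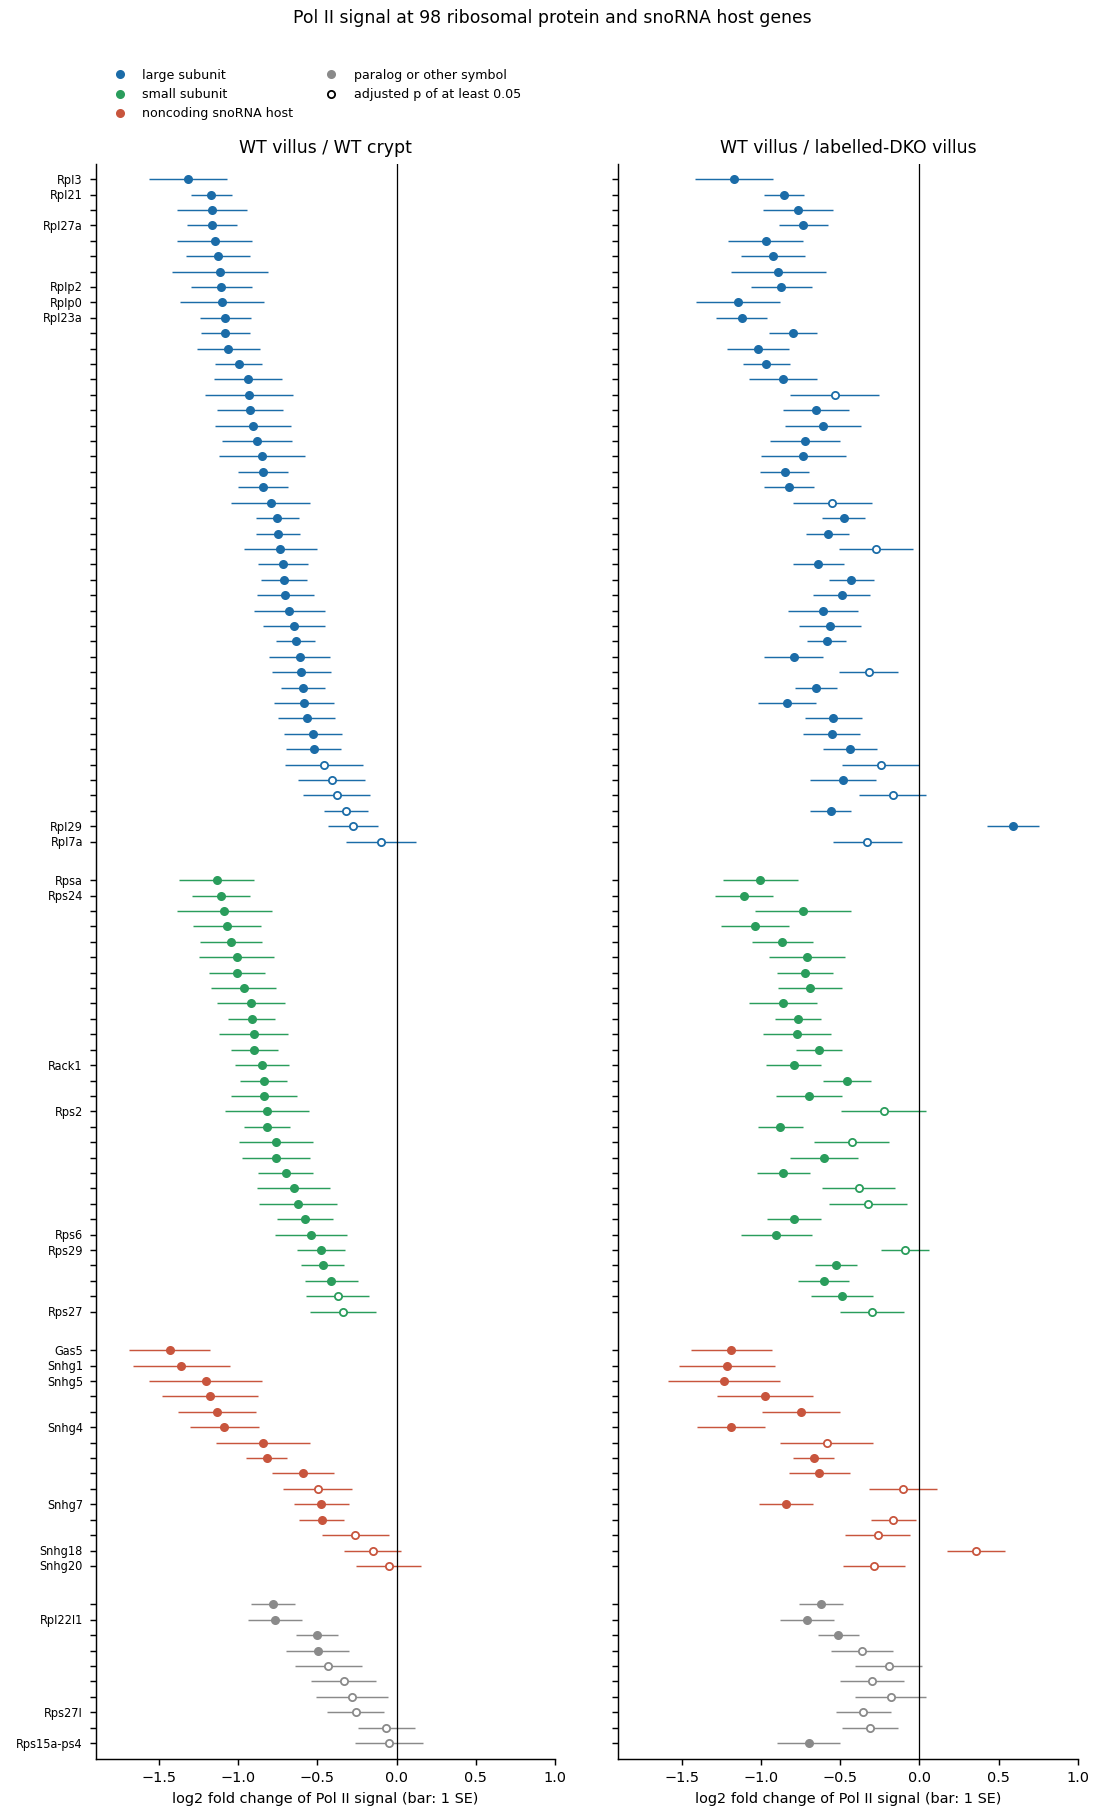
Log2 fold change of Pol II signal (horizontal axis, authors' deposited tables, bar of 1 SE to each side) for each of the 98 members (rows, grouped by class and ordered by the left panel, with names at a selection). Filled points were called; all points of the left panel lie below 0, and in the right panel 2 points, Rpl29 and Snhg18, lie above 0.

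Of the 44 large subunit genes, 38 were called higher in crypt and 36 higher in the villi labelled DKO, with medians of −0.77 and −0.64 in the authors' deposited tables. Rpl3, which encodes a core protein near the peptidyl transferase centre, led the class. Its signal was 422 in crypt, 381 in the villi labelled DKO and 169.5 in WT villus, a log2 fold change of −1.32 ± 0.25 against crypt (adjusted p 1.02e-06) and −1.17 ± 0.24 against labelled DKO (adjusted p 9.46e-06) in the authors' deposited tables. Rpl21 followed, with 173.6 in crypt, 139.6 in the villi labelled DKO and 77.2 in WT villus, and its −1.17 ± 0.13 against crypt had the lowest adjusted p of any member in the authors' deposited table (6.71e-18). At both genes WT villus was the lowest group and the villi labelled DKO lay between it and crypt.

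Rpl26, Rpl27a and Rpl4 completed the 5 lowest of the class against crypt in the authors' deposited table, at −1.17 ± 0.22, −1.16 ± 0.16 and −1.15 ± 0.24. RPL26 is known as a binder of p53 mRNA besides its place in the ribosome. Against labelled DKO, the deposited values of Rpl26, Rpl27a and Rpl4 were −0.77 ± 0.22, −0.73 ± 0.16 and −0.97 ± 0.24, all called. Rpl23a and Rpl32 were among the 5 lowest of the class against labelled DKO, at −1.12 ± 0.16 and −1.02 ± 0.20 in the authors' deposited table, and were called against crypt as well, at −1.08 ± 0.16 and −1.06 ± 0.20.

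Rplp0, Rplp1 and Rplp2 encode the acidic stalk of the large subunit, which recruits translation factors. All 3 were called higher in crypt, at −1.10 ± 0.27, −0.93 ± 0.28 and −1.11 ± 0.19 in the authors' deposited table. Against labelled DKO, Rplp0 (−1.14 ± 0.26, adjusted p 6.97e-05) and Rplp2 (−0.87 ± 0.19, adjusted p 2.69e-05) were called, and Rplp1 (−0.54 ± 0.28, adjusted p 0.0933) was not, in the authors' deposited table. Rplp0 had a signal of 190.3 in crypt, 195.6 in the villi labelled DKO and 88.6 in WT villus.

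Rpl29 went against the rest. It encodes a small protein of the large subunit that also binds heparin at the cell surface. Its signal was 108 in crypt, 89.5 in WT villus and 59.5 in the villi labelled DKO, so that the villi labelled DKO were its lowest group and not WT villus. The authors' deposited tables gave −0.28 ± 0.16 against crypt (adjusted p 0.155) and 0.59 ± 0.16 against labelled DKO (adjusted p 0.00106), a 1.51-fold lower signal in the villi labelled DKO. It did not pass against changes up to 0.5. In mm9, the build of the deposited windows, its windows span chr9:106331642-106333399 on the plus strand and overlap no other gene's windows. Of the 4 genes tested that start nearest to it on the chromosome, chosen after its value was seen, only Alas1 was called against labelled DKO. It starts at −181681 bp from Rpl29 and was higher in WT villus, at 1.09 ± 0.13 in the authors' deposited table. Acy1, Abhd14b and Ppm1m were not called in that comparison. The closest, Acy1, which starts 8825 bp away, was at 0.11 ± 0.17 (adjusted p 0.612).

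The least affected large subunit genes against crypt were Rpl7a (−0.10 ± 0.22), Rpl29, Rpl27 (−0.32 ± 0.14), Rpl18 (−0.38 ± 0.21) and Rpl8 (−0.41 ± 0.21), none called in the authors' deposited table. Against labelled DKO they were Rpl29, Rpl18 (−0.17 ± 0.21), Rpl41 (−0.24 ± 0.24), Rpl36a (−0.27 ± 0.23) and Rpl17 (−0.32 ± 0.19), of which only Rpl29 was called in the authors' deposited table. At Rpl18, which encodes another core large subunit protein, the windows overlap those of Sphk2 on the opposite strand. Sphk2, a sphingosine kinase gene, was higher in WT villus in both of the authors' deposited tables, at 1.19 ± 0.15 and 1.32 ± 0.15, and the counting recorded no strand, so reads of the pair cannot be told apart.

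Of the 29 small subunit genes, 27 were called higher in crypt and 23 higher in the villi labelled DKO, with medians of −0.84 and −0.71 in the authors' deposited tables, and none was called in the other direction. Rpsa, which encodes a small subunit protein also known as a laminin receptor, had the lowest value against crypt. Its signal was 157.8 in crypt, 144 in the villi labelled DKO and 71.9 in WT villus, with −1.13 ± 0.24 against crypt (adjusted p 1.64e-05) and −1.004 ± 0.236 against labelled DKO (adjusted p 9.10e-05) in the authors' deposited tables. Rps24, mutated in some cases of Diamond-Blackfan anaemia, had nearly equal rebuilt signals in crypt (159.9) and the villi labelled DKO (159.4) and a lower one in WT villus (74.1). The authors' deposited tables gave −1.11 ± 0.18 and −1.10 ± 0.18 for it.

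Rps9, Rps12 and Rps19 were the next lowest against crypt, at −1.09 ± 0.30, −1.07 ± 0.21 and −1.04 ± 0.20 in the authors' deposited table. RPS19 is the protein most often mutated in Diamond-Blackfan anaemia. Rack1, which encodes a scaffold protein that sits on the head of the small subunit, was at −0.85 ± 0.17 against crypt and −0.79 ± 0.17 against labelled DKO in the authors' deposited tables, both called. Rps6, the substrate of the S6 kinases, was only just past the threshold against crypt (−0.54 ± 0.23, adjusted p 0.0468) and further from 0 against labelled DKO (−0.90 ± 0.22, adjusted p 2.18e-04) in the authors' deposited tables. With Rps12 (−1.04 ± 0.21), it was among the 5 lowest of the class against labelled DKO.

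At the other end, Rps27 and Rps3a1 were the small subunit genes not called against crypt, at −0.34 ± 0.21 and −0.37 ± 0.20 in the authors' deposited table. Rps13 (−0.41 ± 0.17), Rps14 (−0.47 ± 0.13) and Rps29 (−0.48 ± 0.15) were called. Against labelled DKO, Rps29 and Rps2 were at −0.09 ± 0.15 and −0.22 ± 0.27 in the authors' deposited table and were not called, nor were Rps27 (−0.30 ± 0.20) and Rps16 (−0.38 ± 0.23). For Rps2 the rebuilt signal was 220.1 in crypt, 145.7 in the villi labelled DKO and 124.8 in WT villus, so the villi labelled DKO lay nearer to WT villus than to crypt.

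The genes classed by symbol as noncoding snoRNA hosts held both ends of the members' range against crypt. Of 15, 11 were called higher in crypt and 9 higher in the villi labelled DKO, with medians of −0.82 and −0.67 in the authors' deposited tables. Gas5, first known as a transcript that accumulates in growth-arrested cells, had a signal of 299 in crypt, 252 in the villi labelled DKO and 110.8 in WT villus. The authors' deposited tables gave −1.43 ± 0.26 against crypt (adjusted p 3.70e-07), a 2.70-fold difference and the lowest value of any member, and −1.19 ± 0.26 against labelled DKO (adjusted p 2.01e-05). Snhg1 had 198.7 in crypt, 179.8 in the villi labelled DKO and 77.5 in WT villus, with −1.36 ± 0.30 and −1.21 ± 0.30 in the authors' deposited tables.

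Snhg5, which carries C/D box snoRNAs, had the lowest value of all members against labelled DKO, at −1.23 ± 0.36 (adjusted p 0.00159) beside −1.20 ± 0.36 against crypt in the authors' deposited tables. Snhg12, Snhg6 and Snhg4 were also called in both of the authors' deposited tables, at −1.18 ± 0.30, −1.13 ± 0.25 and −1.09 ± 0.22 against crypt and −0.97 ± 0.30, −0.75 ± 0.25 and −1.19 ± 0.22 against labelled DKO. So were Snhg17 (−0.82 ± 0.13 and −0.67 ± 0.13), Snhg3 (−0.59 ± 0.20 and −0.63 ± 0.19) and Snhg7 (−0.48 ± 0.18 and −0.84 ± 0.17). At these 9 hosts WT villus lay below both other groups, which follows from their being called lower in both comparisons.

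Snhg9 and Snhg16 were called against crypt, at −0.84 ± 0.29 and −0.47 ± 0.14, and not against labelled DKO, at −0.58 ± 0.29 and −0.16 ± 0.14, in the authors' deposited tables. The remaining 4 hosts were called in neither of the authors' deposited tables: Snhg8 was at −0.50 ± 0.22 and −0.10 ± 0.22, Snhg10 at −0.26 ± 0.21 and −0.26 ± 0.20, Snhg20 at −0.05 ± 0.21 and −0.28 ± 0.20, and Snhg18 at −0.15 ± 0.18 and 0.36 ± 0.18. No gene annotated as a snoRNA was found inside Snhg10 or Snhg20, by the deposited windows or by RefSeq. Snhg10 and Snhg20 were therefore classed as hosts by symbol. Whether they host small RNAs annotated under other classes was not tested. Snhg18, beside Rpl29, was the only member with a positive value against labelled DKO. Its adjusted p of 0.0878 fell to 0.0356 when the fold changes were centred on the median of all genes.

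The 10 other symbols had medians of −0.38 against crypt and −0.36 against labelled DKO in the authors' deposited tables. In each 4 were called, all lower in WT villus, and 6 were not. Of all genes tested, 18.8% were called higher in crypt and 29.5% higher in the villi labelled DKO. Rpl22l1, the paralog of Rpl22, was called in both of the authors' deposited tables (−0.77 ± 0.17 and −0.71 ± 0.17), close to Rpl22 itself (−0.64 ± 0.12 and −0.59 ± 0.12). Rpl7l1 was also called in both (−0.50 ± 0.13 and −0.51 ± 0.13). Rps27l, a paralog of Rps27 known as a p53 target, was called in neither (−0.26 ± 0.18 and −0.35 ± 0.17). Also called in neither were Rpl36al (−0.43 ± 0.21 and −0.19 ± 0.21), Rpl37rt (−0.07 ± 0.18 and −0.31 ± 0.18) and Rps19bp1, which encodes a protein that binds RPS19 (−0.28 ± 0.23 and −0.18 ± 0.22), in the authors' deposited tables.

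Some of these symbols read the same stretch of genome as another member. Rps27 and Rps27rt share their mm9 windows but for 1 base, and their deposited fold changes against crypt were −0.34 and −0.33. Rpl34-ps1 (−0.78 ± 0.14 and −0.62 ± 0.14) lies within the windows of Rpl34 (−0.75 ± 0.14 and −0.58 ± 0.14) in the authors' deposited tables. Members of these pairs are not separate measurements. Rps2 and Snhg9 lie head to head and share part of their promoter windows. The pseudogene Rps15a-ps4 was called against labelled DKO only (−0.70 ± 0.20, adjusted p 0.00121, beside −0.05 ± 0.21 against crypt), and Rps19-ps3 against crypt only (−0.50 ± 0.20, adjusted p 0.0355, beside −0.36 ± 0.19), in the authors' deposited tables. Their windows overlap those of Gmeb1 and Zfp933 on the same strand, which were not among the genes tested. Ribosomal protein genes have many near-identical processed copies, and the authors' counting kept only reads with a mapping quality of at least 30, so reads that map equally well to several copies would be left out.

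Set against each other, the villi labelled DKO and WT crypt differed little at most members, with a lean towards crypt. Subtracting 1 deposited log2 fold change from the other gives labelled DKO over crypt, with an SE set to the largest value that independent errors allow. Its median over the members was −0.14, or 1.10-fold lower in the villi labelled DKO, against 0.01 for the genes that are no member, and 71 of 98 members were negative. By a Wald test with Benjamini-Hochberg adjustment over all 6429 genes, 1 member, Rpl29, was called higher in crypt (−0.87 ± 0.23, adjusted p 0.00212), where 7.19% of all genes tested were. None was called higher in the villi labelled DKO, where 6.41% of all genes tested were, and 1 (Rps15a-ps4) was at an unadjusted p under 0.05.

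**Figure D2:**
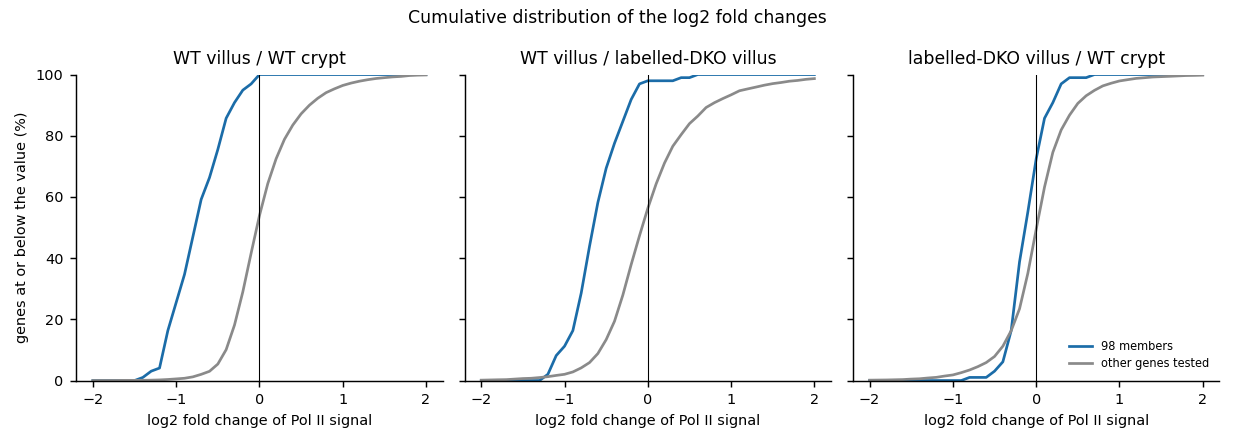
Share of genes (vertical axis, %) with a log2 fold change at or below the value on the horizontal axis, for the 98 members and the other genes tested. The members' curve lies left of the other genes in the first 2 panels, with medians of −0.76 and −0.64. In the third panel the curves lie nearer, with a median of −0.14 for the members and 0.01 for the other genes.

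These intervals leave room for differences. The 95% interval of labelled DKO over crypt lay wholly between −1 and 1 for 85 of the 98 members and wholly between −0.5 and 0.5 for 9. The distance from the value to either bound ran from 0.34 to 0.99, with a median of 0.55. Rps2 (−0.59 ± 0.38), Snhg18 (−0.51 ± 0.26) and Rpl36a (−0.46 ± 0.33) followed Rpl29 at the low end, and Rps15a-ps4 (0.65 ± 0.29), Snhg7 (0.37 ± 0.25) and Rps6 (0.36 ± 0.32) stood at the high end, none called. With an SE rebuilt from a fit of the deposited errors, 7 members were called, with Rpl29, Snhg18, Rpl27a, Rpl21 and Rps29 among those higher in crypt, and Rps15a-ps4 higher in the villi labelled DKO. By that test 6.12% of the members and 14.3% of all genes tested were called higher in crypt, and 1 member and 15.6% of all genes tested higher in the villi labelled DKO.

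**Figure D3:**
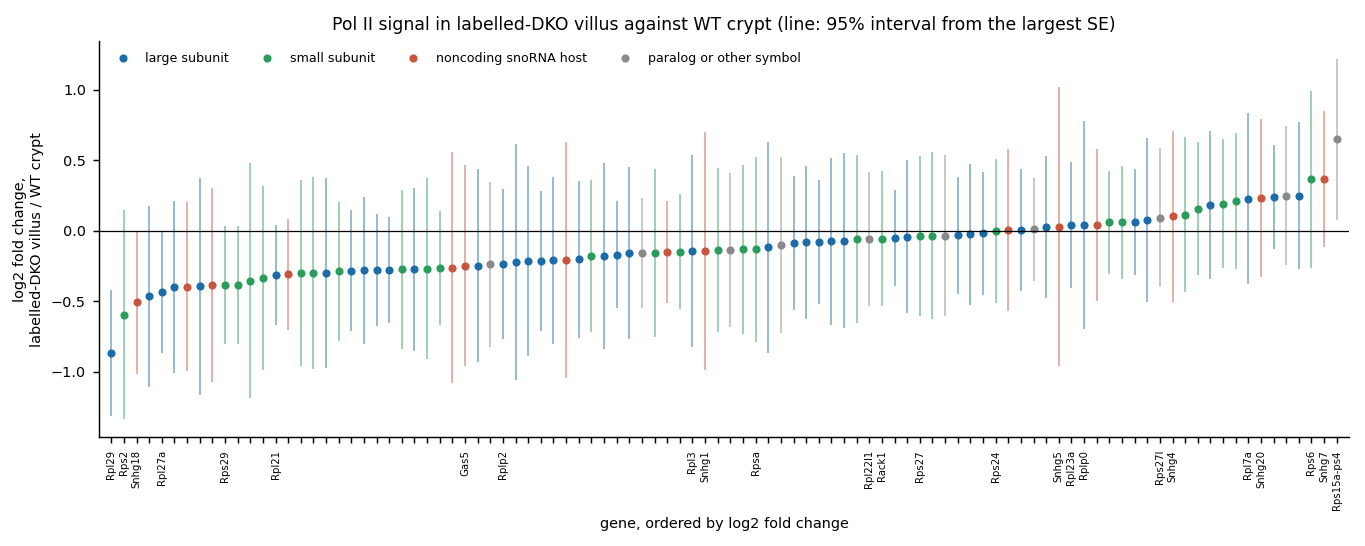
Log2 fold change of labelled-DKO villus over WT crypt (vertical axis) for each of the 98 members (horizontal axis, ordered by value, with names at a selection), with the 95% interval from the largest SE as a line. The points run from −0.87 at Rpl29 to 0.65 at Rps15a-ps4, and most intervals include 0.

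The threshold cut through a graded range of values. Against crypt, Rps13 (adjusted p 0.0378) and Rps6 (0.0468) lay just inside it, and Rpl27 (0.0512) and Snhg8 (0.0554) just outside, in the authors' deposited table. Against labelled DKO, Rps9 (0.0298) and Rpl8 (0.0402) lay just inside and Rps27l (0.0770) was among those just outside, in the authors' deposited table. The middle 50% of members ran from −1.01 to −0.51 against crypt and from −0.85 to −0.44 against labelled DKO, while the median SE of a member was 0.20 in both of the authors' deposited tables.

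The deposited promoter and gene body windows of the members' transcripts were compared by position. All 150 transcripts of the members had both windows. Every promoter window in the deposited files was 402 bp long. On the plus strand the gene body window began 350 bp after the start, leaving 48 bases between it and the promoter window. On the minus strand it reached 350 bp upstream of the start and held the whole promoter window, at all 21190 minus-strand transcripts with both windows, whereas none of the 19858 on the plus strand overlapped their promoter window. Its far end relative to the gene's end was at −501 bp on the plus strand and at 499 bp, past the end, on the minus strand, as medians over genes with 1 RefSeq transcript.

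**Figure D4:**
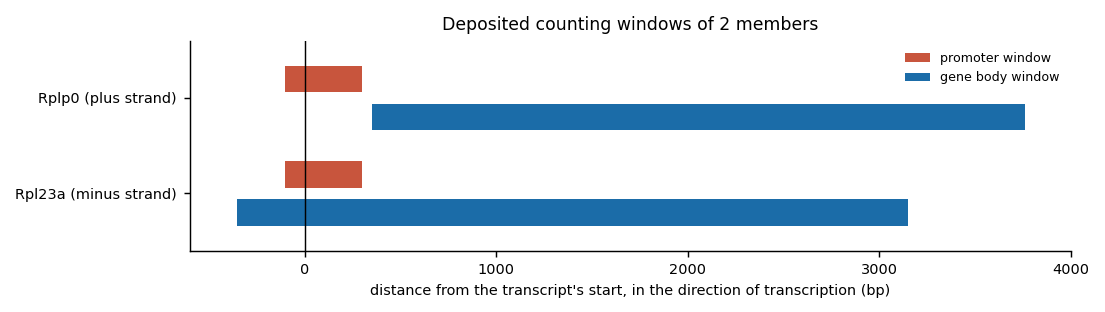
Promoter window (red) and gene body window (blue) of Rplp0 on the plus strand and Rpl23a on the minus strand, by distance from the transcript's start in bp. The windows of Rplp0 are apart, and the gene body window of Rpl23a contains its promoter window.

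The 52 members on the minus strand had a median gene body window of 3768.5 bp (1276 to 12622) and the 46 on the plus strand 2413.5 bp (1015 to 8797). Which window the deposited comparisons counted is not given in the sources used here. Of 25123 gene symbols with a promoter window, 2657 had no gene body window, and 4 of these were among the genes tested. The median log2 fold changes were −0.83 on the plus strand and −0.75 on the minus strand against crypt, and −0.71 and −0.63 against labelled DKO, in the authors' deposited tables. Of the plus-strand members 39 were called higher in crypt, and of the minus-strand members 41. The difference in window between strands is a limit for any ratio of promoter to gene body signal, which was not computed here.

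Members are short, and the length of the gene body window was set beside their values. Their median window was 3075 bp, against 12040.5 bp for the genes tested, and 83 members were under 5000 bp. Of the 1470 other genes tested under 5000 bp, 8.84% were called higher in crypt and 17.0% higher in the villi labelled DKO, with medians of 0.01 and 0.00 in the authors' deposited tables. The 83 short members had medians of −0.75 and −0.63, and the 15 longer ones −0.85 and −0.70. The part of gene length in the result was not tested.

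Ribosomal protein genes with and without a snoRNA gene inside were both mostly higher in crypt. A snoRNA gene lay within the span of 34 members on the same strand by the deposited windows. The 24 ribosomal protein genes with one had medians of −0.86 against crypt and −0.76 against labelled DKO, and the 49 without had −0.74 and −0.61, in the authors' deposited tables. Of the 24, 23 were called higher in crypt, and of the 49, 42. Rpl13a, with Snord32a, Snord33, Snord34 and Snord35a inside, was at −0.85 ± 0.27 against crypt in the authors' deposited table, Rpl23a, with 3 snoRNA genes, at −1.08 ± 0.16, and Rpl11, with none, at −0.997 ± 0.150. By the RefSeq table, which gives no strand, 31 ribosomal protein genes held a snoRNA gene, Rpl21 and Rpl7a among them, with medians of −0.85 and −0.79, and the 42 without had −0.73 and −0.61. A test of the difference was not run.

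The medians of members with and without the pyrimidine run were set side by side, with no test of the difference. The 36 members with it had medians of −0.76 and −0.66, and the 38 without had −0.76 and −0.64, in the authors' deposited tables. Among noncoding hosts the medians were −0.54 and −0.61 for the 8 with it and −0.82 and −0.67 for the 5 without. Other motifs were searched on both strands in the 300 bases of each promoter, as letters only. CCGGAAG, the core of an ETS or GABP site, was in 37.8% of members, 21.3% of the other genes tested and 9.93% of all promoters. TATAAA was in 17.6%, 9.75% and 15.7%, and among the 13 noncoding hosts with a sequence it was in 46.2%. GGGCGG, an SP1-type box, was in 63.5%, 67.8% and 38.2%, CCAAT in 31.1%, 43.0% and 41.1%, and CACGTG, the E-box of MYC and MAX, in 9.46%, 11.7% and 8.09%. None of these motifs contains another.

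Neighbouring genes were counted next to the members. The windows of 30 members overlapped another gene, and 16 shared a promoter window with a gene on the opposite strand. The 68 members that overlapped none had medians of −0.84 against crypt and −0.71 against labelled DKO, and 60 of them were called higher in crypt. Snhg1 starts head to head with Slc3a2, the heavy chain of an amino acid transporter, and Slc3a2 went the other way in the authors' deposited tables, at 0.76 ± 0.11 and 0.55 ± 0.11. Rpl9 and Lias, a lipoic acid synthase gene, also share a promoter window, and Lias was at −0.06 ± 0.11 in both of the authors' deposited tables while Rpl9 was at −0.75 ± 0.14 and −0.48 ± 0.14. At Rpl7a the partner Med22 was likewise near 0, at −0.00 ± 0.10 and −0.08 ± 0.10. Some genes inside or beside a member had values near the member's: Gm15772 at Rpl26 was at −1.18 ± 0.23, Wdr38 at Rpl35 at −0.89 ± 0.17 and Ccdc84 at Rps25 at −0.76 ± 0.14 against crypt in the authors' deposited table, and reads counted for both cannot be told apart.

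Other genes of translation with TOP mRNAs were lower in WT villus too, by less. Of 19 listed, 14 were tested, and 10 were called higher in crypt and 11 higher in the villi labelled DKO, none in the other direction, with medians of −0.59 and −0.50 in the authors' deposited tables. Eif3a, a subunit of initiation factor eIF3, was at −0.86 ± 0.13 and −0.77 ± 0.13, and Eef1a1 and Eef1g, of elongation factor eEF1, were at −0.77 ± 0.20 and −0.74 ± 0.18 against crypt in the authors' deposited table. Hnrnpa1, of an RNA-binding protein, was at −0.80 ± 0.22. The 42 genes of the mitochondrial ribosome that were tested had medians of −0.29 and −0.17. Of these 42, 12 were called higher in crypt and 2 higher in villus, where 18.8% and 18.6% of all genes tested were. Against labelled DKO, 11 were called higher in the villi labelled DKO, where 29.5% of all genes tested were, a share that the 42 did not exceed. In WT villi 1 was called higher, where 22.4% of all genes tested were.

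Of 8 listed genes for snoRNP proteins, which package snoRNAs (1 of them under both its current and its older symbol), 4 were tested. Nop56, a core C/D box protein, was called in both of the authors' deposited tables (−0.87 ± 0.22 and −0.80 ± 0.22), as was Snu13 (−0.66 ± 0.12 and −0.36 ± 0.12). Dkc1, the pseudouridine synthase of the H/ACA box class, went the other way (0.61 ± 0.18 and 1.25 ± 0.19). Nhp2 was called in neither. The list of growth regulators of ribosomal protein genes was mixed. Of 21 listed, 13 were tested, and 1 of these, Rps6, is itself a member. Of the other 12 genes, 6 were called higher in crypt and 3 higher in villus, where 18.8% and 18.6% of all genes tested were. Against labelled DKO, 7 were called higher in the villi labelled DKO and 3 in WT villi, where 29.5% and 22.4% of all genes tested were. Myc was higher in crypt and in the villi labelled DKO (−1.06 ± 0.18 and −0.67 ± 0.18), while Mxd1 and Mxi1, which encode antagonists of MYC, were higher in WT villus (2.03 ± 0.26 and 0.92 ± 0.25, and 0.72 ± 0.10 and 1.12 ± 0.10), as was their shared partner Max (0.77 ± 0.06 and 0.76 ± 0.06), in the authors' deposited tables.

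**Figure D5:**
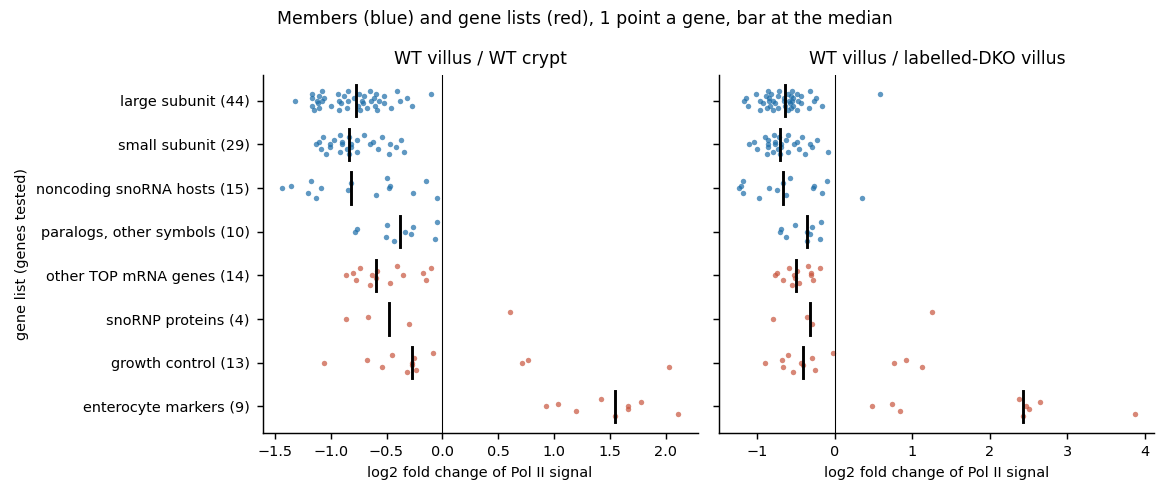
Log2 fold change of Pol II signal (horizontal axis, authors' deposited tables) of every tested gene of the 4 member classes (blue) and of 4 gene lists (red), with a bar at each median. The medians against crypt run from −0.84 for the small subunit to −0.38 for the other symbols, −0.59 for other TOP genes, and 1.55 for enterocyte markers.

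Cell type markers moved along the same comparisons. All 9 enterocyte markers tested of 10 listed were higher in WT villus in both of the authors' deposited tables, from 0.93 to 2.11 against crypt and from 0.49 to 3.87 against labelled DKO. Both proliferation genes tested of 7 listed were lower in WT villus in both: Pcna at −0.95 ± 0.20 and −0.62 ± 0.20, and Ccnd1 at −0.56 ± 0.19 and −0.74 ± 0.18. Of 7 crypt stem cell markers 2 were tested, Axin2 (−0.49 ± 0.17, called against crypt, and −0.38 ± 0.17, not called) and Sp5, which was higher in WT villus (1.37 ± 0.25 and 2.75 ± 0.27), in the authors' deposited tables. The defining stem cell genes Lgr5 and Olfm4, Mki67, and all 3 Paneth and 5 mesenchyme markers were not among the genes tested. Goblet markers went both ways, with 3 of 5 called higher in villus and 2 higher in crypt. Against labelled DKO, 3 of the 5 were lower in WT villus, as most members were, namely Agr2 (−1.06 ± 0.13), Spink4 (−0.81 ± 0.10) and Clca1 (−0.52 ± 0.12) in the authors' deposited table, and none was called higher. Of 5 immune markers Cd74 was tested (0.72 ± 0.24 and 1.33 ± 0.24), and of 2 enteroendocrine markers Chga, which was not called. The part of cell makeup in the members' values was not tested, and fewer cells with high Pol II at these genes and less Pol II per cell cannot be told apart in bulk tissue.

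The RefSeq table holds 16 further genes that match the rule and were not among the genes tested. Of these 5 are subunits of the cytosolic ribosome, Rpl28, Rpl36, Rps15, Rps21 and Rps23, and all 5 lie on the plus strand and have a promoter window but no gene body window. The other 11 are paralogs, retrogenes, pseudogenes and Snhg genes. Why these genes were not tested, and whether the authors filtered on low values, is not given in the sources used here. The counts above are of the members present in the authors' deposited tables.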

How the data were processed

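Pol II ChIP-seq was analysed from the processed files alone. Per the submitters' processing notes, the authors used FastQC 0.11.3, Bowtie2 2.2.6, SAMtools 0.1.19, Picard, deepTools 2.4.2, featureCounts and DESeq2 1.36.0 with build mm9. Per the file headers, featureCounts 2.0.3 counted read pairs over windows with overlap allowed, duplicates ignored, a mapping quality of at least 30 and no strand option. The deposited comparison tables give, by the authors, a mean signal (read counts over size factors), a log2 fold change and its SE, a Wald score, and a p-value with its adjusted p-value for each gene. The score was checked to equal the fold change over its SE, and the adjusted p-value to be Benjamini-Hochberg over the table.

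The 18 count columns of the deposited window tables name no library and were not used, so depth, values per library, promoter and gene body tests and their ratio are not analysed here, and only window positions and lengths were taken from those tables. Each SE is from the authors' fit, and the deposited comparisons do not list the libraries that entered it. The labels give 3 libraries a group and do not say that these are separate animals, so p-values measure the spread between libraries, which may be technical. Group signals, the third comparison, list counts and motif counts were computed with Python 3.11.15, pandas 2.3.3, numpy 2.4.6 and scipy 1.17.1. The computation of group signals and of the third comparison was also tested on simulated data. The main alternatives were an adjusted p under 0.01, centring, a test against changes up to 0.5, a log2 fold change beyond 1, a mean signal of at least 100, and subsets of members.

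Named genes were the 5 highest and 5 lowest members of each class and comparison, every noncoding host and paralog, Rpsa, Rack1, the stalk genes, and at most 4 called genes of a list. The neighbours of Rpl29, the overlapping genes, and Rpl9, Rpl11, Rpl13a and Rpl22 where given for comparison fall outside that rule and were named after their values were seen, as were the cell type markers named with values. Some members that this rule names are not reported here by name, though the counts and medians include them. The members and lists were chosen with earlier results of these data known. Sequences are from RefSeq (GRCm38.p6) and matched 74 of 98 members, and no coordinates were converted between builds.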

Additional observations from a re-analysis of the deposited data

How the results depend on the processing

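No paired analysis was possible because no count column bears a library name and the comparison tables give no values per library. For the same reason the replicate block, leaving out each replicate, and the tests of promoter counts, gene body counts and their ratio were not run. Against crypt, the 80 members called higher in crypt became 10 against changes up to 0.5 and 25 beyond a log2 fold change of 1, and were made up of 39 on the plus and 41 on the minus strand. Against labelled DKO, 73 members were called, of which 4 remained against changes up to 0.5 and 11 beyond 1, all higher in the villi labelled DKO, so that 0 were higher in WT villi. On the plus strand 36 were called, 35 of them higher in the villi labelled DKO, and on the minus strand 37, with 0 higher in WT villi. Centring on the median of all genes gave 2 members higher in WT villi, Rpl29 and Snhg18, and a mean signal of at least 100, which leaves Rpl29 out, gave 0. For labelled DKO against crypt, the count of 1 became 0 against changes up to 0.5 and 0 beyond 1. It was also 0 at a mean signal of at least 100 and on the minus strand, but both of these settings leave out Rpl29, the only member called. The rebuilt SE gave 7, with 6 higher in crypt and 1 higher in the villi labelled DKO. Splits by strand were chosen after seeing the data. An adjusted p under 0.01, leaving out overlapping members and leaving out the other symbols kept the first 2 comparisons within 1.5 times of their counts (72, 60 and 76 against crypt). Of the alternatives only centring can change a direction, since the others keep the same log2 fold change. It shifts values by the medians of all genes (−0.04, −0.08 and 0.003), which are small beside the values of called members. Unchanged directions among called genes are therefore no test of them. Among named genes that were not called 1 changed direction, Snhg10 in labelled DKO against crypt, from 0.0021 to −0.00050 after centring. Depth, which is not analysed here, limits what an uncalled member shows.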
